A study of Arabidopsis thaliana with 30 samples.

Results

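The step between the third and the second day after excision was followed in the petiole of wild-type Arabidopsis leaves, by setting the 3 WT petiole libraries of 72 h against the 3 of 48 h. These 6 libraries were taken by genotype and time from a series of 30, and 21472 of the 33602 genes in the count table were tested. WT was Col carrying an ORE1::LUC reporter, which places luciferase under the promoter of a leaf ageing gene. Leaves of rosette position 4 were cut at the petiole from 21-day-old plants grown on soil, floated on MES buffer and kept at 22 °C under continuous white light. Petiole regions were then harvested at once (0 h) and after 24, 48, 72 and 96 h. The same step was measured in eur1-11, a chemically induced mutant of the same reporter line with a nonsense change in EAR1 (AT5G22090), a negative regulator of abscisic acid signalling. Both genotypes carry the reporter, 1 mutant line stands for the loss of EAR1, and there were 3 libraries in each of 10 groups. The tissue label reads excised leaf, whereas the sample titles say petiole. Nothing in the labels says that replicates came from separate plants, and p-values here measure no more than how far these samples spread.

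A leaf cut from the plant closes its wound, loses its connection to the rest of the plant and can form adventitious roots at the cut end of the petiole. Wound jasmonate acts in the first hours, auxin gathers at the cut, and founder cells near the veins are specified through WOX11, WOX12 and the LBD factors before WOX5 and WOX7 mark a root primordium. Wound surfaces are sealed by suberin, a polyester of long-chain fatty acids, glycerol and ferulate laid down between plasma membrane and wall.

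The 6 libraries held 22482318 to 40797148 counts on genes. Chloroplast transcripts took 25.6 to 26.6% of the counts at 72 h and 31.3 to 31.4% at 48 h. Replicate 3 stood apart from the others. The median absolute log2 difference between replicates 1 and 2 was 0.0984 at 72 h and 0.103 at 48 h, whereas replicate 3 differed from either by 0.164 to 0.168 at 72 h and by 0.252 to 0.261 at 48 h. Nuclear photosynthesis genes summed to 13299 to 17281 CPM (counts scaled to library size with TMM factors) at 72 h and to 9924 to 21342 CPM at 48 h, as in green tissue. Of the root markers, SMB had no counts at either time, and PLT1, PLT2, COBL9 and WOX5 averaged at most 0.0164 CPM in either group. These are only part of the root marker list. MYB36 and CASP1 are given with the suberin genes below, and the levels of SCR, SHR and WER are not given. In these bulk libraries, fewer cells of a type and less RNA per cell cannot be told apart.

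Between 48 and 72 h, few genes were called in the main fit, and those that were pointed mostly upward. Both the number and the share upward depended on the fit, with 55.2% of calls higher when replicate 3 was left out. A small number of calls is not a measure of how little changed. With edgeR's quasi-likelihood test and the replicate number as a block, 226 genes passed an adjusted p of 0.05, which is 1.05% of the genes tested. Of these, 155 were higher at 72 h (0.722%) and 71 were lower (0.331%). Higher genes changed more, with a median log2 fold change of 2.06 against -0.65 for the lower ones, and 69 of the 155 were under 1 CPM at 48 h. The change was at least 2-fold for 145 genes (0.675%), 124 of them higher and 21 lower. At an unadjusted p under 0.05, 2552 genes passed (11.9%).

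The size of the called set depended on the replicates. Without the replicate block 72 genes were called, 60 higher (0.279%) and 12 lower (0.0559%). With replicate 3 left out of all groups 2529 genes were called, 1396 higher (6.48% of the genes tested in that fit) and 1133 lower (5.26%), including 224 of the 226. Leaving out replicate 1 instead left 1 call and leaving out replicate 2 left 0, although 1170 and 1228 genes had an unadjusted p under 0.05 in those fits. Leaving out 1 of the 6 libraries gave 77 to 124 calls. Scaling by total counts in place of TMM shifted the median of all genes to 0.13 and gave 401 higher and 28 lower calls, 93.5% higher against 68.6% with TMM. Each of the 226 genes kept its sign in every alternative in which it was tested.

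Some genes of suberin synthesis were among the largest changes of the day. CYP86A1 (AT5G58860), the fatty acid omega-hydroxylase of suberin synthesis, had 19.8, 21.0 and 26.7 CPM at 72 h, against 1.85, 1.8 and 0.172 CPM at 48 h. Its log2 fold change was 4.13 ± 0.70 (SE), with an adjusted p of 0.0067. The groups were far apart, and replicate 3 was the lowest at 48 h and the highest at 72 h.

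FACT (AT5G63560), the fatty alcohol caffeoyl-CoA transferase that makes alkyl caffeates of suberin-associated waxes, had 8.32, 9.87 and 1.59 CPM at 72 h, against 0 counts in the 3 libraries of 48 h. Set against 3 counts over the 48 h group, it was at least 264.5-fold higher, with an adjusted p of 0.011, and without 48 h replicate 2 the adjusted p was 0.051. It was at 0 in all WT libraries of 0 and 24 h as well. FAR4 (AT3G44540), a reductase that makes the primary alcohols of suberin, had 7.96, 7.89 and 7.60 CPM at 72 h, against 2.92, 2.55 and 1.03 CPM at 48 h. Its log2 fold change was 1.91 ± 0.38 with an adjusted p of 0.015. None of these groups overlapped. The call of FAR4 held only without 48 h replicate 1, and leaving out any other single library gave adjusted p values between 0.0501 and 0.086.

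Of 18 suberin synthesis genes tested, 3 rose and none fell, beside 0.722% and 0.331% of all genes. The median of the list was 1.01, also with FACT at its bound, beside -0.006 over all genes tested. In 10 of the 18 the 72 h libraries all lay above the 48 h libraries, which held for 8.69% of all genes. Among members that did not pass, GPAT5, the glycerol acyltransferase of suberin, averaged 5.40 CPM at 72 h and 1.56 CPM at 48 h (log2 1.81, adjusted p 0.18). FAR5 averaged 7.70 CPM at 72 h and 1.61 CPM at 48 h (log2 2.31, adjusted p 0.10). The suberin regulators MYB41, MYB53, MYB92 and MYB93 lay between -0.65 and 1.18 on the log2 scale and overlapped. Without replicate 3, 10 members were called higher, beside 6.48% of all genes in that fit, and leaving out 1 of the 6 libraries gave 1 (without 48 h replicate 2) to 3. Of the endodermal genes, MYB36 averaged 0.507 CPM at 72 h and 0.144 CPM at 48 h, and CASP1 averaged 0.0789 CPM at 72 h and 0.0576 CPM at 48 h. Their part in the suberin result was not tested.

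**Figure D1:**
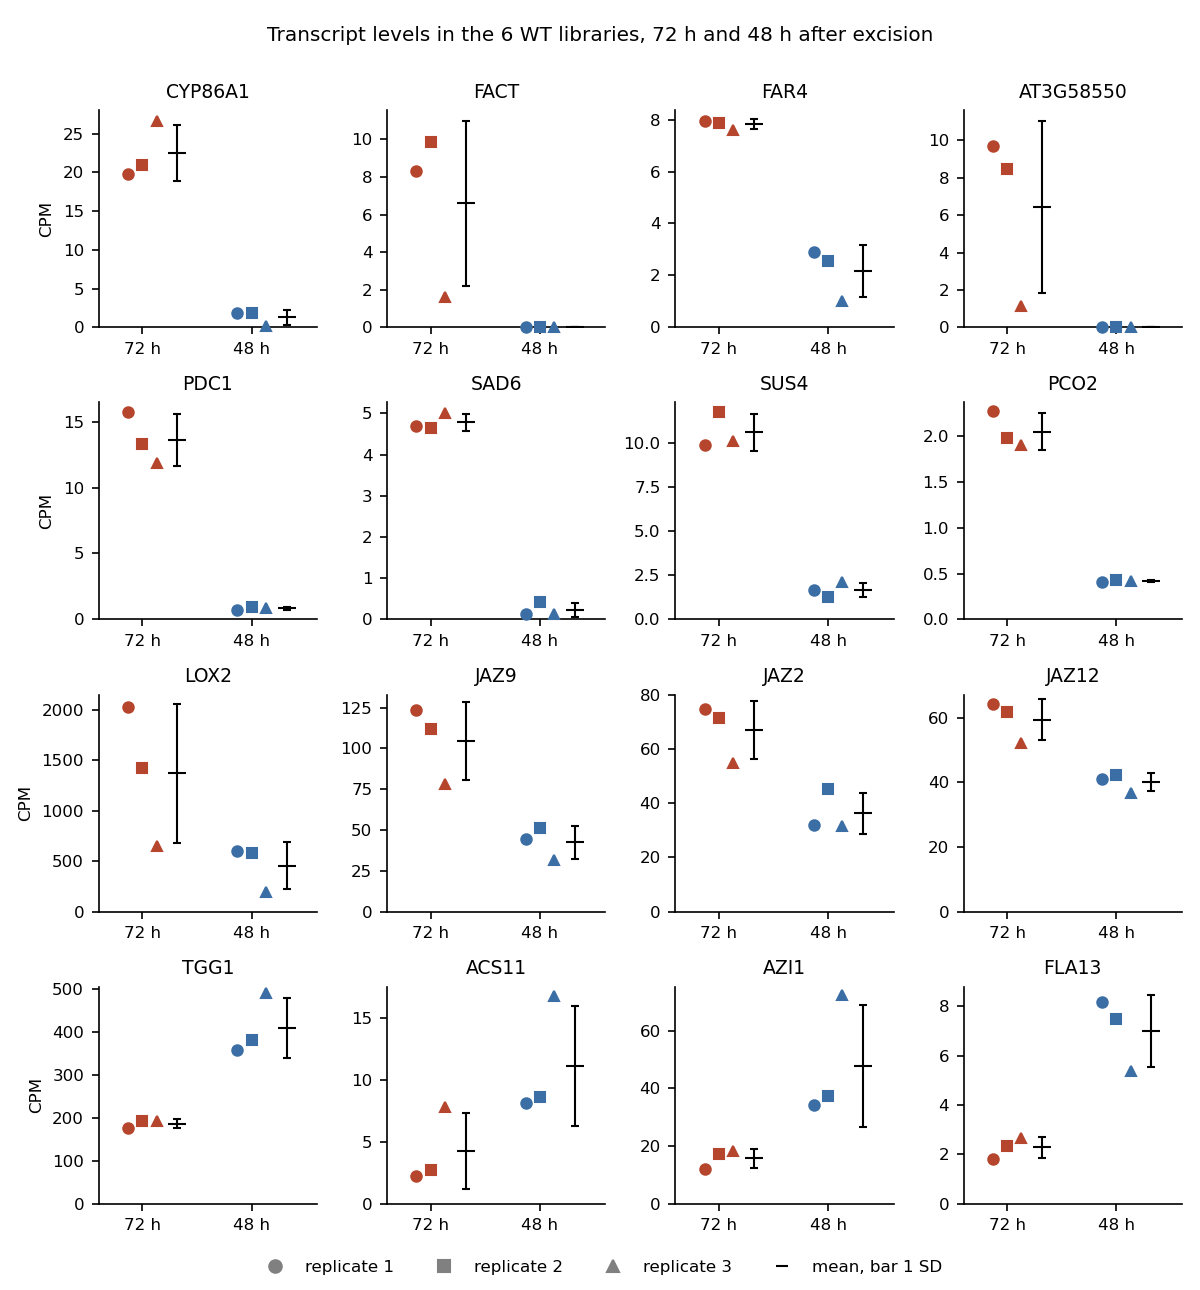
TMM-scaled CPM of 16 genes in the 6 WT libraries, with 72 h left of 48 h in each panel, marker shapes for replicates 1 to 3, and the mean with a bar of 1 SD beside the points. The upper 3 rows show genes that rose, with CYP86A1 at 19.8 CPM or more at 72 h and 1.85 CPM or less at 48 h, and the last row genes that fell, with TGG1 at 192 CPM or less at 72 h and 359 CPM or more at 48 h.

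Genes of extracellular lipid and wall proteins stood beside the suberin enzymes at the top of the list. AT3G58550, a predicted lipid-transfer protein, had 9.71, 8.45 and 1.15 CPM at 72 h, against 0, 0.0228 and 0.0246 CPM at 48 h. With 2 counts at 48 h its depth-scaled ratio was 405 (95% counting interval 112 to 3353), and its adjusted p was 0.0027. The second lipid-transfer gene, AT2G18370, had 8.72, 8.55 and 2.65 CPM at 72 h, against 0, 0.0456 and 0.0737 CPM at 48 h (log2 7.09 ± 0.85, adjusted p 0.0016). Replicate 3 was the lowest of the 72 h libraries for both. The groups did not overlap, which the rule for naming the largest changes required.

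AT5G37690, an SGNH hydrolase-type esterase, had 10.9, 12.9 and 12.7 CPM at 72 h, against 0.754, 0.593 and 0 CPM at 48 h (log2 4.80 ± 0.79, adjusted p 0.011). AT5G09480, a hydroxyproline-rich glycoprotein of the wall, had 13.1, 13.03 and 16.4 CPM at 72 h, against 1.03, 1.23 and 0.172 CPM at 48 h (log2 4.14 ± 0.54, adjusted p 0.0021). The alpha/beta-hydrolase AT4G24140 had 9.06, 9.87 and 9.83 CPM at 72 h, against 1.41, 1.25 and 0.319 CPM at 48 h (log2 3.25 ± 0.48, adjusted p 0.0019). These 3 genes stayed called without any single library of the 6.

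Others of the largest changes were less stable. The peroxidase AT2G38390 had 10.5, 9.60 and 0.949 CPM at 72 h, against 0.103, 0.182 and 0.0737 CPM at 48 h (log2 5.69 ± 1.07, adjusted p 0.017). Its neighbour AT2G38380, also a peroxidase, was named for comparison after its values were seen and had 94.8, 101.3 and 62.7 CPM at 72 h, against 27.6, 31.4 and 3.44 CPM at 48 h (log2 2.25, adjusted p 0.014). How reads were divided between these related neighbours is uncertain. The multicopper oxidase-like gene sks15 had 12.2, 9.11 and 0.712 CPM at 72 h, against 0.343, 0.524 and 0.0737 CPM at 48 h (log2 4.31 ± 0.92, adjusted p 0.022). AT2G44240, of unknown function, had 21.7, 17.5 and 44.2 CPM at 72 h, against 3.74, 4.67 and 0.688 CPM at 48 h (log2 3.31 ± 0.76, adjusted p 0.044). AT2G38390 and sks15 stayed called only without 72 h replicate 3, with adjusted p up to 0.090 and 0.12 otherwise, and AT2G44240 lost its call without any single library (adjusted p 0.057 to 0.18). Over the whole family of lipid-transfer proteins, 43 were tested, 3 rose and 3 fell, beside 0.722% and 0.331% of all genes, with a median of -0.08.

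Low oxygen genes formed the list with the highest share of calls. In plants, cells short of oxygen turn to ethanol fermentation, break sucrose through sucrose synthase, and switch on a core set of genes through ERF factors that plant cysteine oxidases mark for destruction when oxygen is present. Of 13 genes of this response, 6 rose and none fell, beside 0.722% and 0.331% of all genes tested, and the median of the list was 1.22. The estimate was above 0 for all 13. The 6 were PDC1, SAD6, SUS4, PCO2, LBD41 and ADH1.

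PDC1 (AT4G33070), pyruvate decarboxylase at the entry to ethanol fermentation, had 15.7, 13.3 and 11.8 CPM at 72 h, against 0.720, 0.980 and 0.835 CPM at 48 h. Its log2 fold change of 3.99 ± 0.35 had the smallest p of all genes (adjusted p 2.7e-06), and it was the single gene still called without replicate 1. SAD6 (AT1G43800), an acyl desaturase of the core low oxygen set, had 4.68, 4.65 and 5.02 CPM at 72 h, against 0.137, 0.433 and 0.123 CPM at 48 h (log2 4.40 ± 0.48, adjusted p 0.00064). SUS4 (AT3G43190), a sucrose synthase, had 9.92, 11.8 and 10.105 CPM at 72 h, against 1.65, 1.3 and 2.11 CPM at 48 h (log2 2.62 ± 0.37, adjusted p 0.0016). The groups did not overlap for these genes. Replicates lay close together at 72 h, while at 48 h SAD6 was low and uneven, with replicate 2 the highest.

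PCO2 (AT5G39890), one of the oxygen-sensing cysteine oxidases, had 2.28, 1.98 and 1.90 CPM at 72 h, against 0.412, 0.433 and 0.418 CPM at 48 h (log2 2.26 ± 0.33, adjusted p 0.0019). PDC1, SAD6, SUS4 and PCO2 kept their calls without any single library of the 6. LBD41 and ADH1 fell outside the naming rule and are given because they complete the list. LBD41 (AT3G02550), a LOB-domain factor, had 17.1, 17.7 and 13.9 CPM at 72 h, against 5.80, 5.13 and 9.68 CPM at 48 h (log2 1.22 ± 0.23, adjusted p 0.0086). ADH1 (AT1G77120), alcohol dehydrogenase, had 30.7, 29.5 and 30.2 CPM at 72 h, against 16.3, 14.3 and 21.2 CPM at 48 h (log2 0.79 ± 0.17, adjusted p 0.020). ADH1 overlaps another annotated gene, AT1G77122, and the strand setting of the counting was not given in the sources used here.

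The other 7 members did not pass. PDC2 averaged 114 CPM at 72 h and 62.8 CPM at 48 h (log2 0.86, adjusted p 0.11). PCO1 averaged 2.25 CPM at 72 h and 0.949 CPM at 48 h (log2 1.26, adjusted p 0.13). SUS1, the haemoglobin gene HB1 and HRE1, an ERF factor, had estimates of 0.09, 0.31 and 0.23. Leaving out 1 of the 6 libraries left 4 to 7 members called, and leaving out replicate 3 left 10, beside 6.48% of all genes called higher in that fit.

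The stretch before the annotated start of ADH1 is shown because the anaerobic element of this promoter is a long-known landmark of the response. The 250 bases lie at chr1:28975005-28975254 on the plus strand of TAIR10.1 (RefSeq), and the capitals mark a match to AAACCA followed by NNN and GC, where N is any base, with its first base at -166.
ADH1: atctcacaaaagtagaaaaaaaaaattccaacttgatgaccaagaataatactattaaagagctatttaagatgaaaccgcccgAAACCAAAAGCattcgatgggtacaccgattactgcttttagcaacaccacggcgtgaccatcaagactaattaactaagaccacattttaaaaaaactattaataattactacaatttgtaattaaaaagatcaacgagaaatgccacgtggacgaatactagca
On either strand this pattern occurred in 1 of the 13 low oxygen genes (ADH1), in 2 of 153 genes called higher (1.31%) and in 0.827% of 26711 windows of the same length upstream of protein-coding nuclear genes. A match is a description of the letters and not a measured binding site.

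Some jasmonate genes rose, by smaller steps. Jasmonate is made from chloroplast lipids through lipoxygenase, allene oxide synthase and allene oxide cyclase, and JAZ proteins repress its MYC factors and are themselves transcribed in the response. Of 33 genes tested, 5 rose and none fell, beside 0.722% and 0.331% of all genes, with a median of 0.57 and estimates above 0 for 29. In 17 of the 33 the 72 h libraries all lay above those of 48 h, beside 8.69% of all genes. LOX2 (AT3G45140), the chloroplast lipoxygenase, had 2027, 1423 and 653 CPM at 72 h, against 596, 581 and 192 CPM at 48 h (log2 1.61 ± 0.36, adjusted p 0.029). The rise was of like size within each replicate number, while replicate 3 was the lowest at both times and its 72 h value lay just above the 48 h values of the others.

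JAZ9 (AT1G70700) had 124, 112 and 78.1 CPM at 72 h, against 44.3, 51.5 and 31.6 CPM at 48 h (log2 1.31 ± 0.32, adjusted p 0.047). JAZ2 (AT1G74950) had 74.9, 71.4 and 54.8 CPM at 72 h, against 32.1, 45.2 and 31.6 CPM at 48 h (log2 0.89 ± 0.18, adjusted p 0.012). JAZ12 (AT5G20900) had 64.2, 61.7 and 52.3 CPM at 72 h, against 41.1, 42.3 and 36.8 CPM at 48 h (log2 0.57 ± 0.11, adjusted p 0.012). None of these groups overlapped. JAZ12 overlaps the annotated gene AIP2. The remaining called member, JAZ6, averaged 133 CPM at 72 h and 83.8 CPM at 48 h (log2 0.67, adjusted p 0.048). With single libraries left out, LOX2 stayed called only without 72 h replicate 3 (adjusted p up to 0.20 otherwise), JAZ9 and JAZ6 in no case (JAZ9 0.082 to 0.24), JAZ2 only without 48 h replicate 2, 72 h replicate 2 or 72 h replicate 3 (up to 0.096) and JAZ12 only without 48 h replicate 2 or 72 h replicate 3 (up to 0.081).

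Several jasmonate markers had large estimates that did not pass. VSP1, a vegetative storage protein and classical jasmonate marker, averaged 35.4 CPM at 72 h and 2.63 CPM at 48 h (log2 3.63, adjusted p 0.06). JAZ10 averaged 37.2 CPM at 72 h and 10.2 CPM at 48 h (log2 1.88, adjusted p 0.083). The defensin PDF1.2 averaged 3.62 CPM at 72 h and 0.0925 CPM at 48 h (log2 5.25, adjusted p 0.06). JAZ1, LOX3, LOX4 and AOC3 overlapped between the times, with estimates of 0.22, 0.47, 0.11 and 0.25. Estimates were below 0 for 4 members of the list, the lowest at -2.79, and these were not called either. Without replicate 3, 20 members were called higher, beside 6.48% of all genes in that fit. Without the block 1 was called, beside 0.279% of all genes, and without 48 h replicate 1, 48 h replicate 3 or 72 h replicate 1 none was, with 2 without 48 h replicate 2, 1 without 72 h replicate 2 and 3 without 72 h replicate 3.

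The region upstream of JAZ2 is shown as the single promoter of the 5 called members with a G-box, CACGTG, the hexamer bound by MYC factors. It lies at chr1:28150447-28150696 on the minus strand of TAIR10.1 (RefSeq), written 5′ to 3′ toward the annotated start, and the capitals mark the G-box with its first base at -66.
JAZ2: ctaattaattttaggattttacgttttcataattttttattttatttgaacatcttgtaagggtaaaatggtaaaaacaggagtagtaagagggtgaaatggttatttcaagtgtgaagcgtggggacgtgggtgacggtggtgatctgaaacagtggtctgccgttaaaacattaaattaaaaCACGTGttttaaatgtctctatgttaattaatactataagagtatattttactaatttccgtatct
A G-box stood in 6 of the 33 jasmonate genes, in 14 of 153 genes called higher (9.15%) and in 6.58% of all 26711 windows, read on both strands, which are the same for this palindrome. The ADH1 window above also holds it, in lower case.

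**Figure D2:**
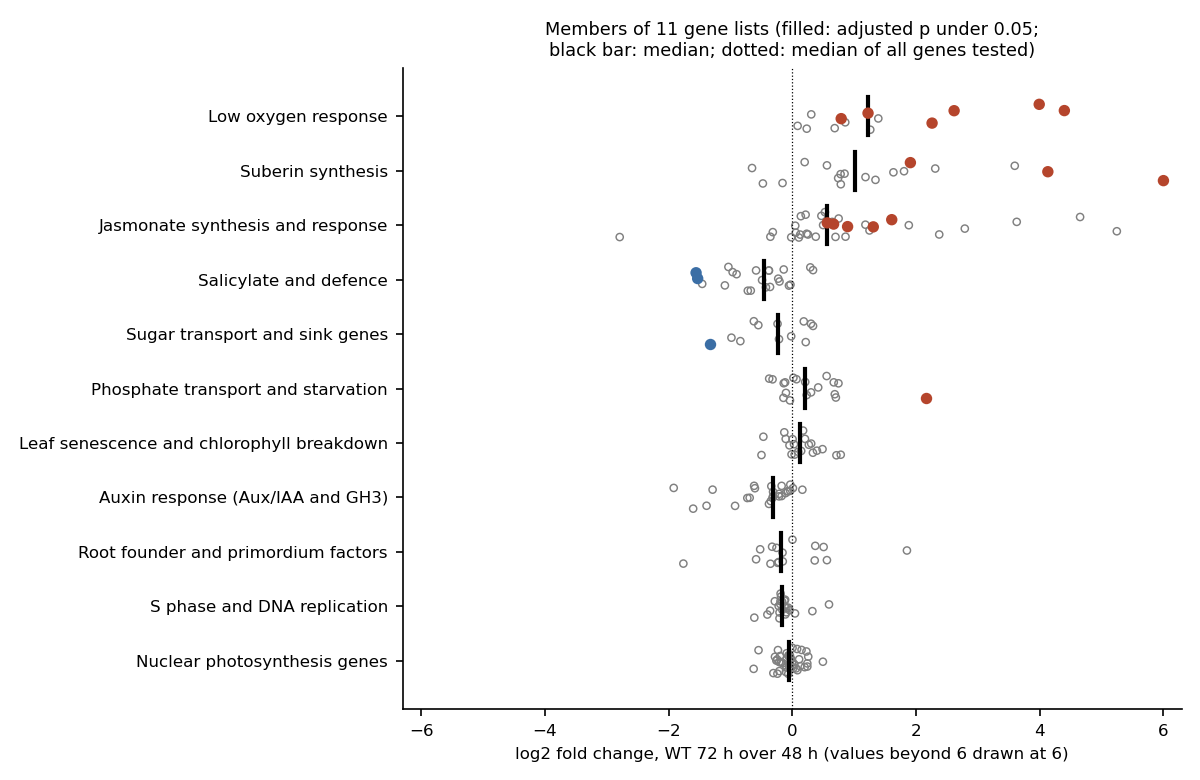
Log2 fold change of WT 72 h over 48 h for the tested members of 11 gene lists, 1 point a gene, filled where the adjusted p was under 0.05, with a black bar at the list's median and a dotted line at the median of all genes tested (-0.006). FACT, at 10.76 as fitted, is drawn at 6. Filled points lie on the right for low oxygen (6), suberin (3), jasmonate (5) and phosphate (1), and on the left for salicylate (2) and sugar genes (1).

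Several genes of the endoplasmic reticulum (ER) body were called higher, and as many others were not called. ER bodies are compartments of Brassicaceae cells that store beta-glucosidases, and the bHLH factor NAI1 controls their genes. This group of 9 was written down after the values were seen and so carries no test as a group. Of 8 tested members 4 were called higher and none lower, beside 0.722% and 0.331% of all genes, and all 8 had estimates above 0. The mannose-binding lectin JAL33 (AT3G16450) had 37.7, 40.3 and 15.0 CPM at 72 h, against 4.01, 3.6 and 0.221 CPM at 48 h (log2 3.68 ± 0.54, adjusted p 0.0019). The beta-glucosidase BGLU22 had 70.7, 71.5 and 29.5 CPM at 72 h, against 12.6, 7.57 and 3.0 CPM at 48 h (log2 2.95, adjusted p 0.012). NAI1 had 11.9, 10.3 and 8.48 CPM at 72 h, against 4.46, 4.88 and 1.57 CPM at 48 h (log2 1.53, adjusted p 0.033). MEB1, an ER body membrane protein that overlaps AT4G27852, averaged 62.1 CPM at 72 h and 34.1 CPM at 48 h (log2 0.86, adjusted p 0.035).

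Other members of the same group did not pass. PYK10, the main beta-glucosidase of root ER bodies, had 495, 538 and 193 CPM at 72 h, against 118, 105 and 29.7 CPM at 48 h (log2 2.27 ± 0.68, adjusted p 0.13). BGLU18, the leaf enzyme, averaged 6385 CPM at 72 h and 1954 CPM at 48 h (log2 1.72, adjusted p 0.15). For both, 72 h was above 48 h in each of the 3 replicate numbers, and replicate 3 was the lowest at each time.

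A few other called genes, all enzymes of metabolism, are named here after their values were seen, with no list or test behind the choice. PEN1, a triterpene synthase, had 6.26, 5.94 and 1.53 CPM at 72 h, against 0.789, 0.661 and 0.147 CPM at 48 h (log2 3.08 ± 0.33, adjusted p 0.00015). IGMT5, an indole glucosinolate methyltransferase, averaged 29.3 CPM at 72 h and 4.68 CPM at 48 h (log2 2.63, adjusted p 0.004). CLH1, a chlorophyllase, had 193, 110 and 70.4 CPM at 72 h, against 34.1, 36.1 and 12.8 CPM at 48 h (log2 2.21, adjusted p 0.0035). GolS1, galactinol synthase of the raffinose pathway, averaged 43.0 CPM at 72 h and 11.7 CPM at 48 h (log2 1.82, adjusted p 0.004). PCK1, phosphoenolpyruvate carboxykinase, averaged 792 CPM at 72 h and 538 CPM at 48 h (log2 0.56, adjusted p 0.0055).

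Few phospholipid and pigment genes were called in the main fit. NPC4 (AT3G03530), a phospholipase C used when phosphate is short, had 3.38, 3.1 and 4.41 CPM at 72 h, against 1.17, 0.729 and 0.565 CPM at 48 h (log2 2.16 ± 0.37, adjusted p 0.0044). It was the 1 gene called of 19 phosphate genes tested, beside 0.722% of all genes called higher, and their median was 0.21. MYB113, an anthocyanin regulator named after its values were seen, averaged 3.54 CPM at 72 h and 0.467 CPM at 48 h (log2 3.08, adjusted p 0.004). None of the 13 flavonoid and anthocyanin genes tested was called, beside 1.05% of all genes, with a median of 0.90. Among them the regulator PAP2 had 2.12, 1.15 and 2.03 CPM at 72 h, against 2.3, 2.39 and 11.0 CPM at 48 h, and PAP1 averaged 8.45 CPM at 72 h and 4.5 CPM at 48 h. Without replicate 3, 7 of the 13 were called higher, beside 6.48% of all genes in that fit.

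Some defence genes were lower at 72 h. AZI1 (AT4G12470), a lipid-transfer protein of systemic immunity, had 11.9, 17.2 and 18.18 CPM at 72 h, against 34.2, 37.4 and 72.3 CPM at 48 h (log2 -1.55 ± 0.35, adjusted p 0.033). NIMIN1 (AT1G02450), which binds the salicylate receptor NPR1, had 1.69, 2.28 and 5.53 CPM at 72 h, against 5.14, 6.77 and 14.9 CPM at 48 h (log2 -1.53 ± 0.32, adjusted p 0.021). The groups overlapped for NIMIN1, whose replicate 3 was the highest at both times, and not for AZI1. Both lost the call without any single library of the 6, at adjusted p of 0.056 to 0.20. Of 22 salicylate and defence genes tested, these 2 fell and none rose, beside 0.331% and 0.722% of all genes, with a median of -0.46 and 20 estimates below 0. ICS1, the main salicylate synthesis gene, averaged 46.9 CPM at 72 h and 96.6 CPM at 48 h (log2 -0.90, adjusted p 0.22), and the marker PR1 averaged 1669.7 CPM at 72 h and 1230.0 CPM at 48 h (log2 0.34, adjusted p 0.87). Without the block, none of the list was called, and without replicate 3, 10 were lower and 2 higher, beside 5.26% and 6.48% of all genes in that fit.

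FLS2, RLP33 and ABCC12 were among the lower genes that the naming rule selected. FLS2 (AT5G46330), the flagellin receptor kinase, had 22.4, 25.4 and 31.8 CPM at 72 h, against 37.6, 39.9 and 63.4 CPM at 48 h (log2 -0.80 ± 0.16, adjusted p 0.012). It overlaps RWA1 and shares its symbol with a flavonol synthase, AT5G63580, which was higher at 72 h. RLP33 (AT3G05660), a receptor-like protein, had 5.75, 4.98 and 8.17 CPM at 72 h, against 11.0, 9.73 and 15.6 CPM at 48 h (log2 -0.95 ± 0.21, adjusted p 0.026). ABCC12 (AT1G30410), an ABC transporter, had 24.4, 25.6 and 30.5 CPM at 72 h, against 38.5, 40.9 and 60.3 CPM at 48 h (log2 -0.78 ± 0.14, adjusted p 0.0055). The groups did not overlap for these 3, which the naming rule required. The call of ABCC12 held without any single library. FLS2 lost it without 48 h replicate 3 or any 72 h library (adjusted p 0.053 to 0.075), and RLP33 without any but 48 h replicate 2 (0.060 to 0.15).

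A gene of ethylene synthesis also fell. ACS11 (AT4G08040), an ACC synthase, had 2.22, 2.71 and 7.80 CPM at 72 h, against 8.09, 8.57 and 16.7 CPM at 48 h (log2 -1.56 ± 0.27, adjusted p 0.0048). The groups did not overlap, and replicate 3 was the highest at both times. The call held without any single library, while without the replicate block the adjusted p was 0.60. Another ACC synthase, ACS2, averaged 4.99 CPM at 72 h and 17.5 CPM at 48 h (log2 -1.75, adjusted p 0.37).

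Some protein folding genes of the ER were also lower. These chaperones and disulfide isomerases act on proteins entering the secretory pathway. PDIL2-2 (AT1G04980), a disulfide isomerase, had 20.6, 17.59 and 20.6 CPM at 72 h, against 29.2, 27.9 and 49.5 CPM at 48 h (log2 -0.84 ± 0.19, adjusted p 0.027). Its call held only without 48 h replicate 1 or 2, with adjusted p of 0.088 to 0.20 without the others. The related PDIL1-1 had 225, 213 and 257 CPM at 72 h, against 319, 311 and 458 CPM at 48 h (log2 -0.64, adjusted p 0.012). SHD, the HSP90 of the ER, had 658, 606 and 700 CPM at 72 h, against 835, 797 and 1197 CPM at 48 h (log2 -0.51, adjusted p 0.045). Replicate 3 was the highest library of 48 h in each case.

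Over 21 ER folding genes, a group drawn up after these values were seen, 6 were called lower and none higher, beside 0.331% and 0.722% of all genes, and 19 had estimates below 0, with a median of -0.49. The others called were PDIL1-2, PDIL1-3 and ATERDJ2B, with log2 fold changes of -0.59, -0.66 and -0.46. The BiP chaperones BIP1 and BIP2, near-identical copies whose reads may be shared, had estimates of -0.49 and -0.59 and did not pass (adjusted p 0.15 and 0.16). VSR5, a vacuolar sorting receptor, had 4.04, 4.78 and 6.0 CPM at 72 h, against 7.06, 7.20 and 9.63 CPM at 48 h (log2 -0.69 ± 0.15, adjusted p 0.028), and its call was lost without any single library (adjusted p 0.065 to 0.17).

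The myrosinase genes TGG1 and TGG2, whose enzymes release toxic products from glucosinolates, fell by more than their replicates differed. TGG1 (AT5G26000) had 176, 192 and 192 CPM at 72 h, against 359, 381 and 490 CPM at 48 h (log2 -1.11 ± 0.17, adjusted p 0.0024). TGG2 (AT5G25980) had 136, 162 and 180 CPM at 72 h, against 288, 307 and 455 CPM at 48 h (log2 -1.11 ± 0.17, adjusted p 0.0023). The calls held without any single library, while the block mattered for TGG2 (adjusted p 0.053 without it). The 2 genes are close relatives in tandem, and a division of shared reads between them cannot be seen here. Of 5 nitrile specifier genes, added after the values were seen, NSP3 and NSP4 were called higher, beside 0.722% of all genes. They averaged 0.768 and 0.398 CPM at 72 h and 0.100 and 0.0234 CPM at 48 h. None of 12 aliphatic glucosinolate synthesis genes was called, beside 1.05% of all genes, with a median of 0.59.

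The remaining lower genes by size were of wall and transport proteins. FLA13 (AT5G44130), a fasciclin-like arabinogalactan protein, had 1.82, 2.34 and 2.68 CPM at 72 h, against 8.16, 7.50 and 5.38 CPM at 48 h (log2 -1.64 ± 0.28, adjusted p 0.004). SWEET4 (AT3G28007), a hexose exporter, had 2.05, 1.58 and 1.83 CPM at 72 h, against 4.22, 4.38 and 5.18 CPM at 48 h (log2 -1.32 ± 0.25, adjusted p 0.0086). COBL5 (AT5G60950), a COBRA-like wall protein that overlaps PNM1, had 7.0, 9.04 and 10.6 CPM at 72 h, against 12.2, 13.6 and 17.3 CPM at 48 h (log2 -0.69 ± 0.17, adjusted p 0.044). None of the 3 pairs of groups overlapped, which the naming rule required for FLA13 and COBL5. FLA13 kept its call without any single library, SWEET4 lost it without 48 h replicate 3 or 72 h replicate 2 (adjusted p 0.058 and 0.076), and COBL5 lost it without any (0.079 to 0.27). SWEET4 was the 1 gene called of 12 sugar transport and sink genes, beside 0.331% of all genes called lower.

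The root regeneration genes did not stand out in this step. Of 29 tested genes that the study had compiled for root regeneration, none was called, beside 1.05% of all genes, and the median was -0.08. With a share that small, no call among 29 does not set this list apart from other genes. In the fit that left out replicate 3, 2 were called higher and 2 lower, beside 6.48% and 5.26% of all genes. WOX11 (AT3G03660), which starts founder cells, had 0.910, 1.29 and 2.95 CPM at 72 h, against 0.857, 1.64 and 6.04 CPM at 48 h (log2 -0.58 ± 0.41, adjusted p 0.63). LBD16 (AT2G42430), a factor downstream of auxin, had 1.8, 2.54 and 1.93 CPM at 72 h, against 2.67, 3.42 and 1.84 CPM at 48 h (log2 -0.33 ± 0.39, adjusted p 0.81). The groups overlapped for both.

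ERF115 (AT5G07310), a regulator of stem cell division after wounding, had 2.64, 2.21 and 2.58 CPM at 72 h, against 5.11, 4.44 and 3.32 CPM at 48 h. These groups did not overlap, but the log2 fold change of -0.76 ± 0.27 had an adjusted p of 0.22, and non-overlap in that direction was found for 9.79% of all genes. WOX12, WOX5 and LBD29 were too low to be tested, at 0 to 0.066 CPM in each of the 6 libraries. WOX7 and PIN2 were not tested either, at no more than 0.206 and 0.0758 CPM. The auxin synthesis genes YUC8 and YUC9 had log2 fold changes of 0.31 ± 0.44 and 0.22 ± 0.80 and overlapped. At these low levels a difference in the primordium genes was not detectable at this depth.

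The genes that define the lines were near level. EAR1 had 267, 283 and 260 CPM at 72 h, against 338, 330 and 249 CPM at 48 h (log2 -0.16 ± 0.16, adjusted p 0.76). ORE1 (AT5G39610), whose promoter drives the reporter, had 21.9, 26.3 and 28.2 CPM at 72 h, against 23.1, 20.6 and 27.3 CPM at 48 h (log2 0.10 ± 0.28, adjusted p 0.94). Both overlapped between the times. Of 20 leaf senescence genes tested none was called, beside 1.05% of all genes, with a median of 0.12. The smallest p among them belonged to PPH, a pheophytinase of chlorophyll breakdown, with 69.6, 64.3 and 62.0 CPM at 72 h, against 54.3, 52.7 and 55.3 CPM at 48 h (log2 0.27, adjusted p 0.24). At a share of 1.05%, no call among 20 does not set this list apart from other genes. In the fit that left out replicate 3, 6 of the 20 senescence genes were called higher and 0 lower. That compares with 6.48% and 5.26% of all genes in that fit.

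No member was called, beside 1.05% of all genes, in the lists for S phase, mitosis, auxin response, auxin synthesis and transport, cytokinin, abscisic acid, autophagy, photosynthesis, heat shock, nitrogen, sulfate, the clock, wall loosening, monolignols or the tissue markers. Among them, the list medians ran between -0.51 for wall loosening and 0.70 for xylem and secondary wall. The 17 xylem genes all had estimates above 0, though no member's groups separated. IRX9, a xylan synthesis gene, had 6.39, 6.0 and 1.59 CPM at 72 h, against 2.37, 2.80 and 1.33 CPM at 48 h (log2 1.05 ± 0.47, adjusted p 0.37). Summed over the list, xylem genes held 70.7 to 201 CPM at 72 h and 89.3 to 96.8 CPM at 48 h, with 11 of 17 called higher once replicate 3 was left out, beside 6.48% of all genes in that fit. GH3.5, an auxin-conjugating enzyme, had 44.0, 53.2 and 141 CPM at 72 h, against 125, 133 and 289 CPM at 48 h (log2 -1.29 ± 0.34, adjusted p 0.075). Without replicate 3, 8 of 26 auxin response genes were called lower, beside 5.26% of all genes in that fit. That fit also called 6 of 16 cytokinin genes and 4 of 7 phloem markers higher, beside 6.48% of all genes. Of 19 wall loosening genes it called 7 lower and 3 higher. BGLU28, a sulfur shortage gene, was carried by 1 library, with 0.171, 0.066 and 0 CPM at 72 h, against 0.206, 0.0912 and 17.1 CPM at 48 h.

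The WT levels at the other times place this step within the series. The neighbouring steps share libraries with it, so their values are given side by side and not tested against it. CYP86A1 averaged 0.0284, 0, 1.27, 22.5 and 19.2 CPM over the 5 times, from 0 h to 96 h. PDC1 averaged 0.176, 0.743, 0.845, 13.6 and 63.3 CPM at these times. SUS4 averaged 10.6, 1.54, 1.69, 10.6 and 33.6 CPM. CYP86A1 had its highest mean at 72 h, whereas PDC1 and SUS4 were higher again at 96 h, and SUS4 at 72 h was at the mean of the fresh petiole.

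JAL33 averaged 0.0284, 0.137, 2.61, 31.0 and 61.4 CPM over the 5 times. JAZ9 averaged 368, 54.0, 42.4, 105 and 154 CPM. The lower genes had other shapes. AZI1 averaged 0.142, 141, 47.9, 15.8 and 7.56 CPM, with its highest mean at 24 h. TGG1 averaged 3529, 855, 410, 187 and 138 CPM, and FLA13 averaged 56.3, 29.5, 7.01, 2.28 and 1.1 CPM, both lower at each later time. PDIL2-2 averaged 4.19, 55.9, 35.5, 19.6 and 17.7 CPM and remained above the fresh petiole.

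**Figure D3:**
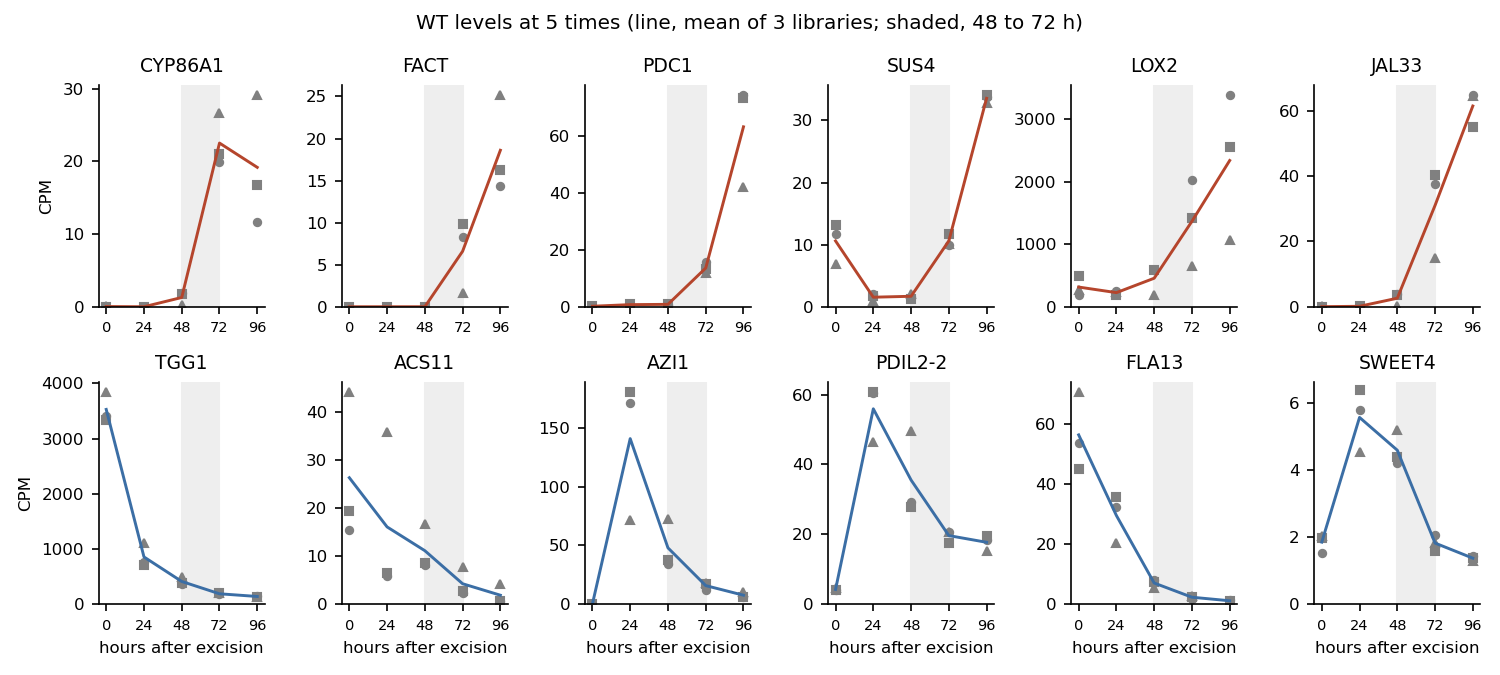
WT levels (TMM-scaled CPM) of 12 genes against hours since excision (5 times from 0 to 96 h), with marker shapes for replicates 1 to 3 and a line through the means of 3 libraries. The shaded span is the step from 48 to 72 h. The upper row shows genes that rose in it, of which PDC1 reached 63.3 CPM on average at 96 h, and the lower row genes that fell, of which AZI1 had its highest mean at 24 h.

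The same step in eur1-11 uses none of the WT libraries. Replicate 3 still deviated together in the 2 genotypes, with correlations of 0.70 at 72 h and 0.74 at 48 h. Replicates 1 and 2 of the 2 genotypes correlated at 0.33 to 0.62, whether or not their numbers were equal. In eur1-11, 282 genes were called (1.31%), 160 higher (0.745%) and 122 lower (0.568%). All 155 genes called higher in WT had the same sign there and 80 were called, which is 51.6% of the WT set and 50% of the eur1-11 set. Of the 71 called lower in WT, 70 had the same sign and 25 were called, 35.2% of the WT set and 20.5% of the eur1-11 set. CYP86A1 had 15.5, 14.2 and 20.3 CPM at 72 h in eur1-11, against 1.69, 1.57 and 0.0596 CPM at 48 h (log2 3.89, adjusted p 0.011). Of the 13 low oxygen genes 5 were called higher in eur1-11, and of the 18 suberin genes 4, beside 0.745% of all genes.

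No gene differed between the genotypes in the size of this step at an adjusted p under 0.05 in edgeR, or in DESeq2, while 551 (2.57%) did at an unadjusted p under 0.05. Leaving out replicate 3 gave 588 genes, 266 with the larger value in WT and 322 with the larger in eur1-11. Because the called genes were chosen on their WT values, a smaller eur1-11 estimate among them is not read as a difference. PDC1 in eur1-11 had 3.34, 5.24 and 2.2 CPM at 72 h, against 1.17, 0.941 and 0.536 CPM at 48 h (log2 2.03). Its step was 1.96 ± 0.48 larger in WT on the log2 scale, with an unadjusted p of 0.00053 and an adjusted p of 1. JAZ2 in eur1-11 had 71.0, 73.1 and 53.2 CPM at 72 h, against 53.0, 67.3 and 39.8 CPM at 48 h, and its groups overlapped. Its log2 fold change was 0.32 there and 0.89 in WT, and the difference of 0.58 ± 0.25 had an adjusted p of 1. None of the jasmonate list was called in eur1-11, beside 1.31% of all genes. With a share that small, no call among 33 does not set the list apart from other genes. The list's median was 0.32 in eur1-11 and 0.57 in WT, beside -0.017 over all genes in eur1-11.

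**Figure D4:**
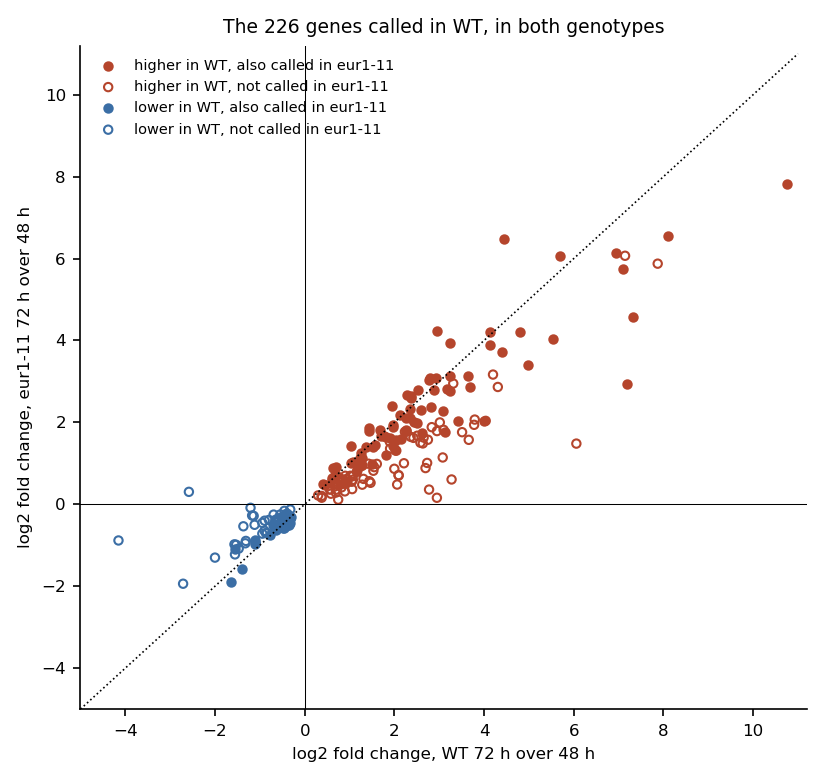
Log2 fold change of 72 h over 48 h in WT (x axis) and in eur1-11 (y axis) for the 226 genes called in WT, 1 point a gene, red for genes higher and blue for genes lower in WT, filled where also called in eur1-11. The dotted line marks equal values. All 155 red points and 70 of the 71 blue points have the same sign in both genotypes, and the genes were chosen on the x axis.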

How the data were processed

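Per the labels and the study's methods, the authors checked and trimmed reads (FastQC), mapped them with STAR on TAIR10 and deposited raw counts per gene from HTSeq, not normalized. Neither versions nor strand are given in the sources used here. Counts on no gene (4.36 to 5.20% in the 6 libraries) and ambiguous reads (2.49 to 2.60%) were left out. Gene names and positions came from TAIR10.1, which held 97.7% of 33602 identifiers.

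All 30 libraries were fitted with edgeR 4.0.16 in R 4.3.3 (TMM, filterByExpr, quasi-likelihood F test), with 1 term per group and the replicate number as a block, as in the study's methods, and Benjamini-Hochberg adjusted p under 0.05 (the study used an unadjusted p). Levels are CPM scaled by TMM. Each SE was taken from F as the unsigned log2 fold change over its root. Residual degrees of freedom were 18 and the common dispersion 0.0358. Deviations from group means of equal-numbered WT libraries at 72 and 48 h correlated at 0.482, 0.337 and 0.562 across 16737 genes, and the study treats the number as a batch. Unequal numbers 1 and 2 also correlated (0.439 and 0.330), so this hardly separates 1 from 2. Replicates 1 and 2 differed by more than sampling noise (chi-square per degree of freedom 7.97 at 72 h and 8.10 at 48 h) and were counted separately. This cannot show whether they came from separate plants, since separate preparations of 1 pool could also differ by more than counting error.

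Genes named were up to 12 per direction with the largest fold change among called genes with at least 5 CPM in the higher group, the same direction in 3 replicate numbers and no overlap, up to 4 called members of each of 35 lists (otherwise the member with the smallest p), and 12 regeneration and line genes. Members and lists were chosen with earlier results of these data known. Folds against 0 counts use 3 counts over the group, and intervals cover counting error only. Alternatives were other factors, filters, sample sets, DESeq2 1.42.0 and libraries left out. In simulated data on 21348 genes the test called 81 of 100 genes changed 2-fold and 99 of 100 changed 4-fold, with 9 unchanged genes called. The changed genes were drawn only from genes with ample counts at 48 h, with noise drawn independently for each library. These shares therefore do not apply to genes that were low at 48 h. One gene that the naming rule selects is not reported here.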

Additional observations from a re-analysis of the deposited data

How the results depend on the processing

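Of 226 genes called in WT at 72 h, the number moved to 72 without the replicate block, 83 with the WT libraries alone, 420 with the 24 libraries after excision, 429 with total counts and 563 with DESeq2 (225 shared), and stayed within 1.5 times under the other settings. A like number did not mean the same genes. The 6 WT libraries of 48 and 72 h fitted alone gave 315 calls, of which only 117 were among the 226. Leaving libraries out gave 0 to 2529 calls. For changes of at least 2-fold (145) the counts were 56 without the block, 65 with the WT libraries alone and 251 with DESeq2, and 0 to 635 with libraries left out. For eur1-11 (282) they were 132 without the block, 596 after excision and 714 with DESeq2, and 0 to 5069 with libraries left out. The difference between the genotypes had 0 calls in all fits but the one without replicate 3, with 588.

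Without the block 20 of the 35 named called genes kept their call, without replicate 3 all 35, and without each of the 6 libraries in turn 18. All 35 kept their sign in the 20 alternatives run for each. Signs turned for ORE1 (-0.0057 without replicate 2, -0.07 without 48 h replicate 2, -0.13 without 72 h replicate 3) and for YUC9 (-0.12 without replicate 2, -0.18 without replicate 3, -0.37 without 48 h replicate 3), neither of them called. With libraries left out ORE1 lay between -0.13 and 0.37 and YUC9 between -0.37 and 1.57. The cause of these shifts was not tested. Depth limits genes below about 1 CPM, such as WOX5 and WOX12.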
